A study of Homo sapiens with 10 samples.

Results

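The respiratory chain and the ATP synthase of the inner mitochondrial membrane were examined through the RNA levels of their nuclear-encoded subunits in DLD-1 cells, an established line from a human colorectal carcinoma. The genes were chosen by symbol: NDUFA, NDUFB, NDUFC, NDUFS and NDUFV genes for complex I, SDHA to SDHD for complex II, UQCR genes and CYC1 for complex III, COX4 to COX8 genes for complex IV and ATP5 genes for complex V. Of the 14232 genes with a probe of their own on the exon arrays used, 65 met this rule, namely 27 of complex I, 3 of complex II, 7 of complex III, 15 of complex IV and 13 of complex V. A floor at the 25th percentile of all probe means, a log2 level of 5.96, left 61 of them for testing (26, 3, 6, 14 and 12, in the same order). The 27 probes that a gene of these families shares with another gene were not used, and NDUFA4 and NDUFA4L2 carry other symbols today and fell outside the rule.

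The study reduced LMNB1, which encodes lamin B1 of the nuclear lamina, with short hairpin RNA (shRNA) and measured RNA on 10 arrays. Construct V2LHS_62673 was represented by 3 single cell clones (8, 9 and 12) with 1 array each. Construct V2LHS_62675 was represented by 1 single cell clone, number 2 by the design text and the descriptions, with 3 arrays, although the titles of these arrays give number 12 and call them biological replicates. The negative controls were untransfected wild type cells with 1 array and 3 clones that carried an empty vector, 1 array each. All cultures but the wild type were kept under puromycin, so the wild type differed from the empty vector clones in selection and cloning as well as in the vector. In comparisons the 3 arrays of clone 2 were averaged to 1 sample, which gave 4 knockdown clones and 4 controls. Clone 2 and the wild type were 1 sample each and were assumed to vary like the other groups.

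Complexes I and II feed electrons from NADH and from succinate into ubiquinone, complex III hands them to cytochrome c, and complex IV passes them to oxygen. Complexes I, III and IV pump protons as they do so, and complex V uses the proton gradient to make ATP. Most subunits are encoded in the nucleus, and those of 1 complex are needed in fixed ratios. The transcription factors NRF1, GABP of the ETS family and YY1 are known to bind many of the nuclear genes' promoters, and PGC-1alpha, encoded by PPARGC1A, is a coactivator that acts with such factors.

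The probe for LMNB1, which is shared with PCIF1, had log2 levels of 7.79, 7.70 and 7.45 in clones 8, 9 and 12 and 7.67 in clone 2, against 9.52 in wild type cells and 8.93, 9.17 and 8.84 in the empty vector clones. The difference was -1.46 (SE 0.17), with an exact permutation p of 0.0286, two-sided, the smallest that 4 against 4 samples allow. The array of clone 8 stood apart. It correlated with the others at 0.915 to 0.926 over all probes, while the others correlated at 0.986 to 0.994, and its median was 7.62 where theirs were 7.34 to 7.41. Every comparison is therefore given with and without clone 8. Of 10 markers of colon epithelium 9 lay above the floor, with levels up to 12.96. Of the markers of other cells with a probe, 2 of 4 of leukocytes (CD14 and CD53, at most 7.41), 4 of 6 of fibroblasts (COL1A1, COL1A2, COL3A1 and PDGFRB, at most 8.27) and 2 of 4 of endothelium (VWF and CDH5, at most 7.25) also lay above it. PTPRC and CD3E of leukocytes, VIM and DCN of fibroblasts and PECAM1 and KDR of endothelium lay below it, and the part of such cells in the results was not tested. In such bulk RNA a change in RNA per cell and a change in the share of cells that make it cannot be told apart.

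Set against the mean of the empty vector clones, the 61 tested subunits had a median difference of 0.24 (log2) in clone 8, -0.03 in clone 9 and -0.09 in clone 12. In clone 2 the medians were -0.05, 0.16 and 0.23 on arrays 1, 2 and 3, and in wild type cells the median was 0.07. Over all 11199 features tested the medians were 0.18 in clone 8, 0.02, 0.04 and -0.01 on the arrays of clone 2, and at most 0.01 from 0 in clones 9 and 12 and the wild type. The subunits were thus above the empty vector level in 47 and 41 of 61 cases on arrays 2 and 3 of clone 2, and in 28 of 61 on array 1. In clone 12 they were above it in 17 of 61. Other gene groups had higher medians than the subunits on arrays 2 and 3 of clone 2. These were 0.26 and 0.25 in mitochondrial ribosomal proteins, 0.31 and 0.33 in proteasome subunits and 0.38 and 0.33 in cytosolic ribosomal proteins.

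**Figure D1:**
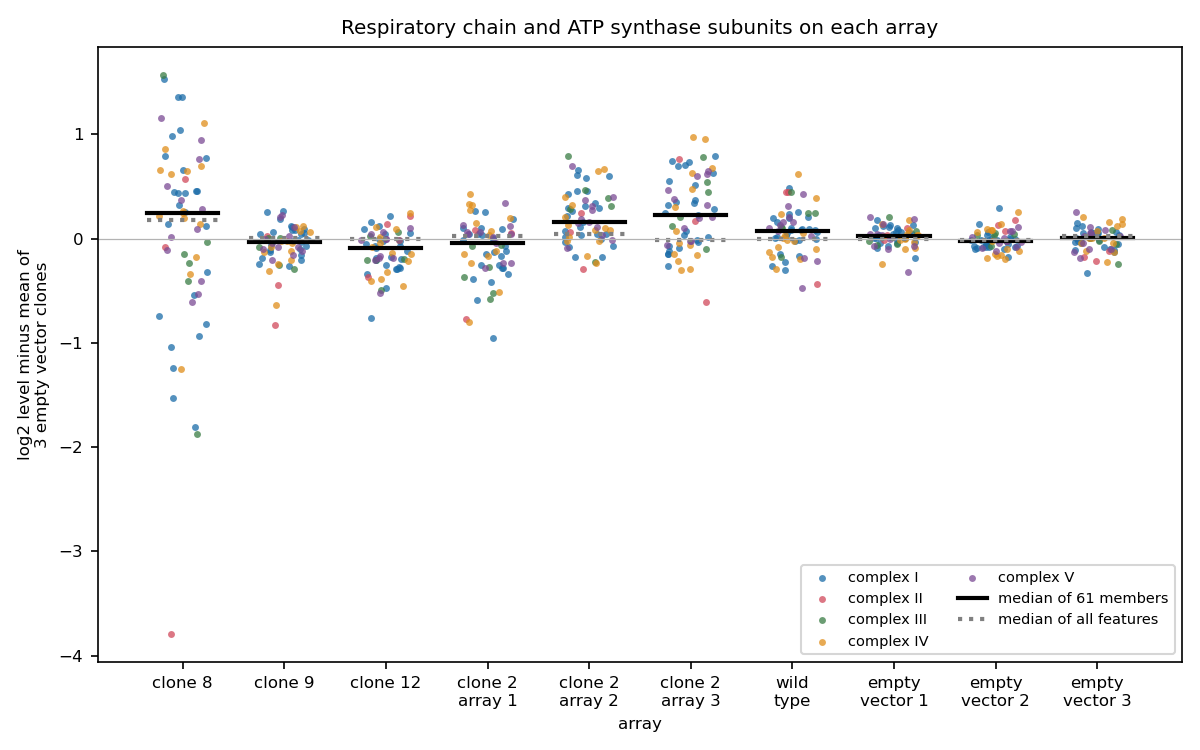
Log2 level of each of the 61 tested subunits on each array, minus its mean in the 3 empty vector clones (y axis), for the knockdown arrays, the wild type and the empty vector arrays (x axis). Points are genes coloured by complex, black lines the median of the subunits and dotted lines the median of all features. Clone 8 spreads from -3.79 (SDHC, under the floor there) to 1.57. The median of arrays 2 and 3 of clone 2 lies above that of array 1.

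The 3 arrays labelled as repeats of clone 2 differed among themselves in these genes. Array 1 was the lowest of the 3 in 41 of 61 subunits (67.2%), array 2 in 11 and array 3 in 9, where array 1 was the lowest in 39.6% of all features. The median difference between array 2 and array 1 was 0.27, and that between array 3 and array 1 was also 0.27, against 0.02 and -0.02 over all features. Arrays 3 and 2 differed by a median of 0.03. Subunits more than 0.5 higher or lower than on array 1 numbered 19 on array 2 and 25 on array 3 (31.1% and 41.0%, against 8.56% and 7.27% of all features), while 2 differed by as much between arrays 3 and 2. The SD over the arrays of clone 2 had a median of 0.21, against 0.11 over the empty vector clones, which are different clones, and was the larger in 48 of 61 subunits (78.7%). Over all features the medians were 0.119 and 0.100, and the SD of clone 2 was the larger in 57.5%. It was the larger in 78.5% of the mitochondrial ribosomal proteins and 86.2% of the proteasome subunits. Since each array is 1 hybridisation of a sample whose preparation the labels do not describe further, this difference has no test.

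The shift was uneven over the complexes. In complex III, the cytochrome bc1 complex, array 1 was the lowest in 6 of 6 subunits, with medians of 0.68 and 0.62 for arrays 2 and 3 over array 1. In complex V it was the lowest in 10 of 12, with medians of 0.24 and 0.24, and in complex I in 18 of 26, with medians of 0.34 and 0.33. Complex IV, cytochrome c oxidase, was split: array 1 was the lowest in 5 of 14 subunits, and the medians were -0.06 and -0.05. These medians include 5 isoforms known from particular tissues, COX4I2, COX6A2, COX6B2, COX7A1 and COX8C, which all read highest on array 1. Their mean levels were 6.02 to 7.37, against 8.31 or more in the other tested subunits of complex IV. The 5 subunits lowest on array 1 were all among the others, and included the largest differences of all subunits. COX7A2, a small membrane subunit, read 9.56, 11.01 and 11.31 on arrays 1, 2 and 3, and COX6C, another small subunit, read 9.77, 10.95 and 11.26. For comparison, the empty vector clones read 10.50, 10.26 and 10.32 for COX7A2 and 10.19, 10.38 and 10.29 for COX6C, so array 1 lay below all of them and arrays 2 and 3 above. A second probe of COX7A2 lay far under the floor, at 3.07 to 3.78, and was not used.

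Array 1 was also the lowest in subunits of complexes I and III. NDUFC1 of complex I read 9.56, 10.57 and 10.76 on arrays 1, 2 and 3, against 9.98, 9.92 and 10.02 in the empty vector clones. UQCR11 of complex III read 8.31, 9.37 and 9.37, against 8.55, 8.63 and 8.56. NDUFB9, NDUFA1, NDUFS4 and CYC1, the cytochrome c1 of complex III, also averaged more than 0.8 higher on arrays 2 and 3 than on array 1 (these genes were chosen for that difference). COX5B, a broadly used subunit of complex IV, ran furthest the other way, with 12.00, 11.57 and 11.59 on arrays 1, 2 and 3. The shift was not restricted to the respiratory chain: array 1 was also the lowest in 49 of 65 mitochondrial ribosomal proteins, 18 of 26 cytosolic ribosomal proteins and 23 of 29 proteasome subunits. Over all probes array 1 correlated with arrays 2 and 3 at 0.988 and 0.988 and with clone 12 of the other construct at 0.991, while arrays 2 and 3 correlated at 0.994. The part of the label conflict in these values was not tested.

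**Figure D2:**
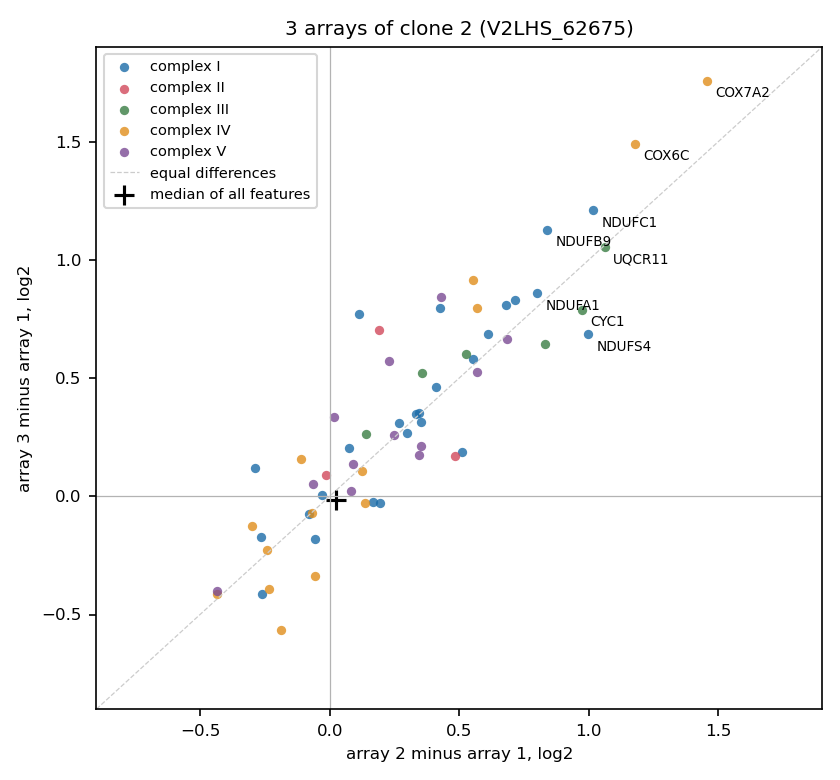
Log2 difference of array 2 (x axis) and array 3 (y axis) from array 1 of clone 2 for each of the 61 tested subunits, coloured by complex, with the median of all features as a cross. Most subunits lie at the upper right of 0 and near the dashed line of equal differences, with COX7A2 and COX6C farthest out.

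Across the 61 subunits, the mean of arrays 2 and 3 minus array 1 went with the difference between wild type cells and the empty vector clones, which share no array with it (Pearson 0.40, Spearman 0.41). Over all features these coefficients were 0.22 and 0.20. With the difference between clone 8 and clones 9 and 12, the coefficients were 0.34 and 0.36 over the subunits and 0.06 and -0.03 over all features. These are descriptions across genes measured on the same few arrays, and genes are not independent replicates.

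Promoter windows of the RefSeq annotation (GRCh38.p14, 250 bases before to 50 after the start) were found for 53 of the 65 genes. A core of NRF1 sites, the letters GCGCA and GCGC with any 1 base between them, occurred on either strand in 13 of them (24.5%), against 8.58% of the windows of 15843 protein-coding genes. CCGGAAG, a core of ETS sites such as those of GABP, occurred in 12 (22.6%, against 14.2%), and AAGATGGC, a core of YY1 sites, in 9 (17.0%, against 3.91%). At least 1 of the 3 motifs was present in 28 windows (52.8%), against 23.6% of all. Among the subunits lowest on array 1 of clone 2, 9 of 34 windows held the NRF1 letters, against 4 of 16 windows of the other tested subunits. The ETS letters were in 9 of 34, against 3 of 16, and the YY1 letters in 7 of 34, against 1 of 16. These counts were not tested. A match is a run of letters and not a measured site. The 250 bases before the start are shown for 3 genes that were lowest on array 1 of clone 2: UQCR11 with 2 matches each of the NRF1 and ETS letters, NDUFA1 with 1 ETS match, and COX7A2, which differed most and has no match in this window. They lie on the minus strand at chr19:1605463-1605712 (UQCR11), on the plus strand at chrX:119871582-119871831 (NDUFA1) and on the minus strand at chr6:75250299-75250548 (COX7A2). Each is written 5′ to 3′ along its gene and ends at the base before the start, with matches on either strand in capitals, none of which overlap.
UQCR11: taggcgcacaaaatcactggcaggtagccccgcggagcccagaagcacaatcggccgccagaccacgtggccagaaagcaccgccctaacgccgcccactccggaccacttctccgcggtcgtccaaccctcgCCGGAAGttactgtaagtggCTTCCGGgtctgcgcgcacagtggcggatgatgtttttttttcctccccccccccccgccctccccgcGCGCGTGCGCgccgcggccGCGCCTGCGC
NDUFA1: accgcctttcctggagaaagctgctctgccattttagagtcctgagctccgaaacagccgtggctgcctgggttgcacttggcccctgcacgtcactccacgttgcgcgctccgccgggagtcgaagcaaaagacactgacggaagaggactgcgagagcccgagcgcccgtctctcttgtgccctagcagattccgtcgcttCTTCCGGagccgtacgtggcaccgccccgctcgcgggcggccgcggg
COX7A2: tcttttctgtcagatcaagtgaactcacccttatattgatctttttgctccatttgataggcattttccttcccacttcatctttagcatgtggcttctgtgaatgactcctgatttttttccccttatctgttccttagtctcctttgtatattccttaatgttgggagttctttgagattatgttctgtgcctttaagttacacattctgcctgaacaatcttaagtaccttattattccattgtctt

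The first comparison asks whether subunit levels differed between LMNB1 knockdown and control cells. With all clones none of the 61 subunits passed an adjusted p of 0.05 in limma, and neither did any other feature (0% of 11199). At an unadjusted p under 0.05 there was 1 subunit, against 2.29% of all features. The median difference was 0.05, with 35 subunits higher and 26 lower, against a median of 0.04 over all features. No tested subunit separated the 4 knockdown clones from the 4 controls, where 3.13% of all features did (1.59% higher and 1.54% lower in the knockdown). Without clone 8 again none passed (0% of features), 4 subunits had an unadjusted p under 0.05, against 6.46% of features, and the median was -0.02.

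The subunit with the smallest p was NDUFS4, an accessory subunit of the NADH-oxidising arm of complex I. It read 8.01, 9.76 and 9.06 in clones 8, 9 and 12 and 8.86, 9.86 and 9.55 on the arrays of clone 2, against 9.87 in the wild type and 9.63, 9.88 and 9.94 in the empty vector clones. Clone 9 and array 2 of clone 2 lay within the range of the controls. The difference was -0.77 (SE 0.32, unadjusted p = 0.0358, adjusted p = 0.761), and -0.42 (SE 0.15, adjusted p = 0.751) without clone 8. An exact permutation test of the 8 values gave p = 0.0571.

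For SDHC, a membrane anchor of complex II, the size of the difference was set by clone 8. SDHC read 5.55, 8.90 and 8.97 in clones 8, 9 and 12 and 8.57, 9.05 and 8.74 on the arrays of clone 2, against 8.91 in the wild type and 9.33, 9.47 and 9.23 in the empty vector clones. All 6 knockdown arrays and the wild type lay below the 3 empty vector clones. The difference between knockdown and controls was -1.18 (SE 0.66, adjusted p = 0.761; exact permutation p = 0.0571), and -0.35 (SE 0.13, adjusted p = 0.751) without clone 8. The catalytic subunit SDHA averaged 0.10 higher in the knockdown clones and the other anchor, SDHD, 0.20 lower. Neither passed in limma (adjusted p = 0.803 and 0.764). SDHD also lay under the floor in clones 8 and 9 (5.95 and 5.21) and in empty vector clone 3 (5.82).

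NDUFV1, the core subunit that binds NADH and the flavin, was the only tested subunit whose knockdown and control clones did not overlap once clone 8 was left out, and it was lower in the knockdown. Of all features 6.1% did not overlap, 3.44% higher and 2.66% lower. It read 9.05 in clone 9, 9.15 in clone 12 and 8.65, 9.06 and 9.11 on the arrays of clone 2, against 9.32 in the wild type and 9.21, 9.21 and 9.30 in the empty vector clones. The difference was -0.21 (SE 0.08, adjusted p = 0.751). Clone 8 lay at 10.00, above all of them, and with it the difference was 0.03. CYC1 of complex III differed by -0.29 without clone 8 (SE 0.12, adjusted p = 0.756). It read 10.27 and 10.07 in clones 9 and 12 and 9.98, 10.95 and 10.77 on the arrays of clone 2, against 10.67 in the wild type and 10.51, 10.54 and 10.64 in the empty vector clones, so that arrays 2 and 3 of clone 2 lay above the controls.

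By complex, and with all clones, the median difference between knockdown and controls was 0.08 in complex I, -0.20 in complex II, -0.13 in complex III, 0.05 in complex IV and 0.10 in complex V. Without clone 8 these medians were 0.01, -0.20, -0.07, -0.03 and 0.0049. The sign thus turned in complex IV and the difference was near 0 in complexes I and V. With all clones, the complex IV value pooled 8 broadly used subunits (median -0.09) with 5 tissue-restricted isoforms (0.22) and COX7A2L (0.05). Those 5 isoforms all read highest in clone 8. In complex III 5 of 6 subunits were lower, with and without clone 8, among them the core proteins UQCRC1 (-0.17, exact permutation p = 0.0571) and UQCRC2 (-0.47), whose value was set by clone 8 at 10.02 where the other arrays were 11.53 to 11.96. Without clone 8 UQCRC2 differed by -0.02. Among the subunits of complex V with the smallest p were ATP5MGL (0.30), a small membrane subunit, and ATP5MC3 (0.34), a member of the c ring, and without clone 8 these differences were 0.11 and 0.08.

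Construct V2LHS_62673 was compared with the empty vector. With all clones none of the 61 subunits passed (0% of features), none had an unadjusted p under 0.05 (3.21% of features), and the median was 0.01, against 0.04 over all features. Without clone 8, which left clones 9 and 12, none of the subunits passed, against 0.991% of features (0.688% lower). At an unadjusted p under 0.05 there were then 14 of 61, against 15.9% of features, and 13 of the 14 were lower in clones 9 and 12. The median was -0.07, against 0.00 over all features, and 38 of 61 were lower. COX7A2 came closest. It read 10.50, 9.72 and 9.98 in clones 8, 9 and 12, against 10.50, 10.26 and 10.32 in the empty vector clones, a difference of -0.51 (SE 0.11, adjusted p = 0.0646) without clone 8. SDHC followed at -0.41 (SE 0.10, adjusted p = 0.0893) and CYC1 at -0.39 (SE 0.10, adjusted p = 0.0956). Of the 8 broadly used subunits of complex IV that were tested, 7 were lower in clones 9 and 12 than in the empty vector clones. Of the 5 tissue-restricted isoforms 3 were higher, COX6A2, COX6B2 and COX7A1. COX7A1 passed the floor of 5.96 only with clone 8, which is left out here, and COX6B2 lay near it, at a mean of 6.16.

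Clone 2, the only clone of construct V2LHS_62675, was also compared with the empty vector clones, which the previous comparison shares. Its median difference was 0.14, against 0.02 over all features, and 45 of 61 subunits were higher. On arrays 2 and 3 of clone 2 the ribosomal and proteasome genes had higher medians than the subunits, as given above. With all clones in the fit none passed (0% of features), and none had an unadjusted p under 0.05 (2.64% of features). Without clone 8, which enters here only through the estimate of the spread, 2 of 61 passed, against 3.74% of features (1.54% higher and 2.21% lower). SDHC was lower in clone 2, with a difference of -0.56 (SE 0.13). SDHC also lay below the empty vector mean in the wild type (-0.44) and in clones 9 and 12 (-0.44 and -0.37), so this was not particular to clone 2. ATP5MC3 rose, with 9.48, 10.05 and 10.00 on arrays 1, 2 and 3 of clone 2, against 9.39, 9.36 and 9.31 in the empty vector clones, a difference of 0.49 (SE 0.11, adjusted p = 0.0452). All 3 arrays of clone 2 lay above the empty vector clones for ATP5MC3 and below them for SDHC. The call of ATP5MC3 was also made without array 1 (0.67, adjusted p = 0.00759), but not without array 2 (0.39, adjusted p = 0.0965) or without array 3 (0.41, adjusted p = 0.0925).

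The comparison of the constructs, clone 2 minus clones 9 and 12, gave more calls than the others once clone 8 was left out. With all clones none of the 61 subunits passed (0% of features), 1 had an unadjusted p under 0.05 (2.22% of features), and the median was 0.17, against -0.05 over all features. Without clone 8 the median was again 0.17, against 0.02 over all features, and 49 of 61 subunits were higher in clone 2. Then 4 of 61 passed, against 2.15% of features, and all 4 were higher in clone 2 (0.929% of features passed in that direction and 1.22% in the other). At an unadjusted p under 0.05 there were 20, all higher, against 15.2% of features.

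The 4 were small subunits of 3 complexes. UQCR11 read 8.31, 9.37 and 9.37 on the arrays of clone 2, against 8.32 and 8.39 in clones 9 and 12, a difference of 0.66 (SE 0.12, adjusted p = 0.0286). COX7A2 differed by 0.78 (SE 0.15, adjusted p = 0.0353), with clone 2 at 9.56, 11.01 and 11.31, against 9.72 and 9.98. COX6C differed by 0.64 (SE 0.13, adjusted p = 0.0403), with clone 2 at 9.77, 10.95 and 11.26, against 10.08 and 9.96. For NDUFC1 the difference was 0.66 (SE 0.14, adjusted p = 0.0426), with clone 2 at 9.56, 10.57 and 10.76, against 9.77 and 9.50. Array 1 of clone 2 lay below both clones in UQCR11, COX7A2 and COX6C and between them in NDUFC1, and arrays 2 and 3 lay above both in all 4 genes. In clone 8 the same genes read 10.15 (UQCR11), 10.50 (COX7A2), 10.93 (COX6C) and 11.33 (NDUFC1), above clones 9 and 12 in each case. With clone 8 kept in the fit the differences were 0.06 (UQCR11), 0.56 (COX7A2), 0.34 (COX6C) and 0.10 (NDUFC1), and none passed (adjusted p from 0.931 to 0.979).

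**Figure D3:**
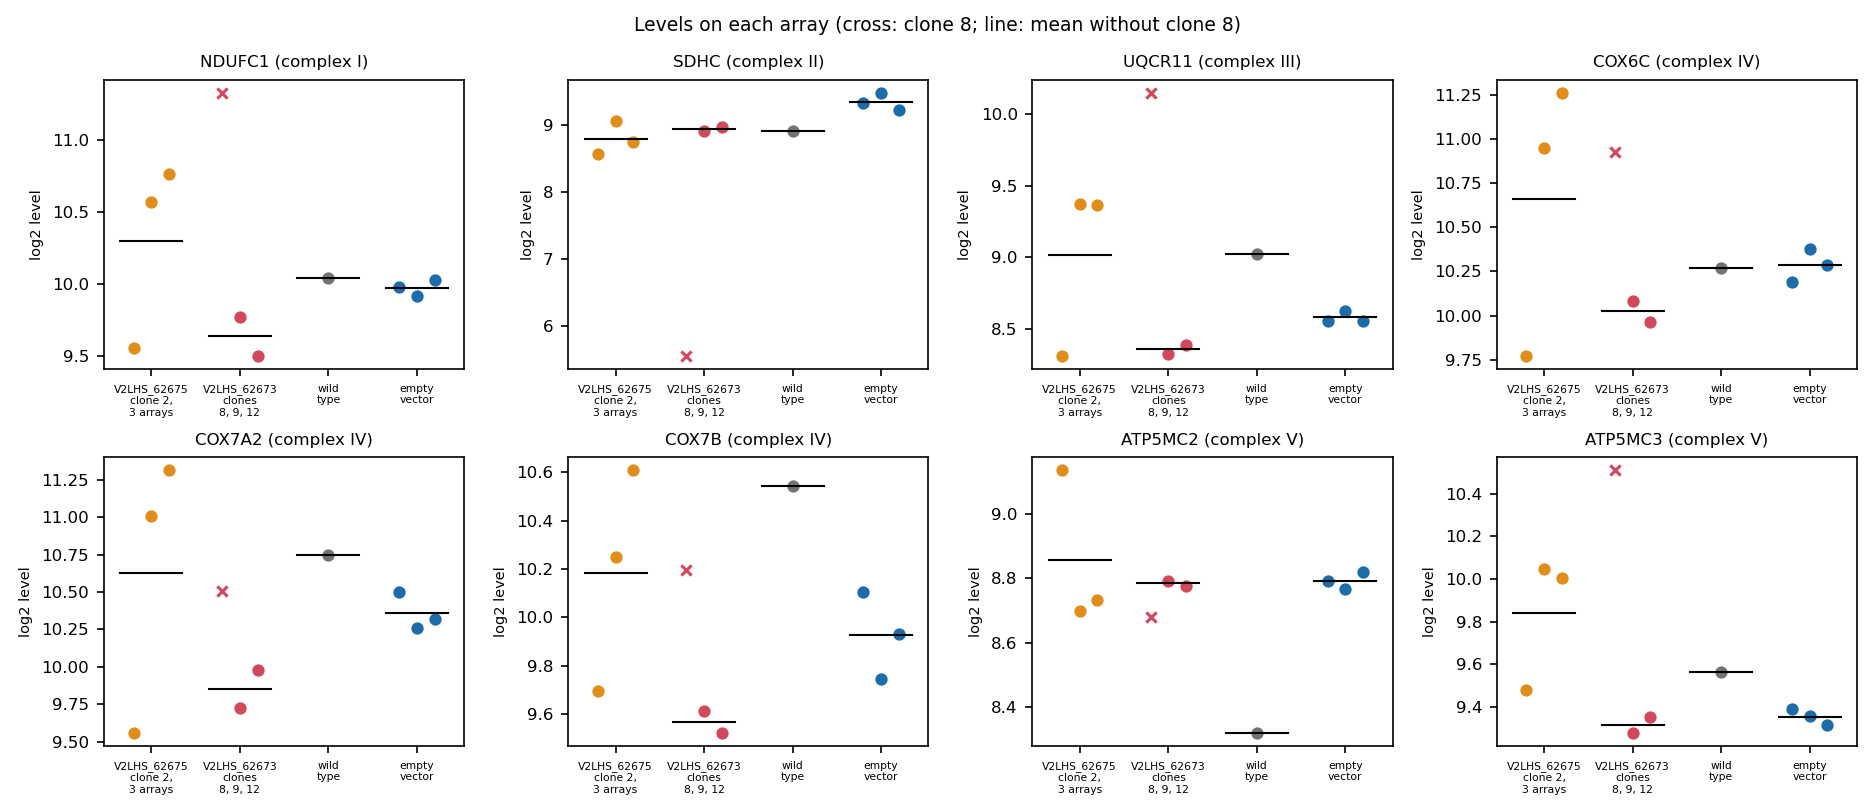
Log2 level on each array (y axis) of the 8 subunits that passed in a comparison made without clone 8, by group (x axis, V2LHS_62675 leftmost). Points are arrays, a cross marks clone 8 and lines are group means without it; in UQCR11, COX7A2, COX6C and NDUFC1 array 1, the leftmost point of clone 2, lies near clones 9 and 12.

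How many subunits passed depended on array 1. Without clone 8 and without array 1 of clone 2, 18 of 61 subunits passed between the constructs, all higher in clone 2, against 8.54% of features, and 13 of 61 were higher in clone 2 than in the empty vector clones, against 9.08% of features. The 18 were 7 subunits of complex I, 3 of complex III, 4 of complex IV and 4 of complex V. COX7A2 then differed between the constructs by 1.31, COX6C by 1.08 and UQCR11 by 1.01. Array 1 was left out after it had been seen to be the lowest in these genes, so larger differences followed from that choice. Clone 2 was 1 averaged sample, so the fit took its spread from the other clones and used none from its own arrays. Over the 3 arrays of clone 2 the SD was 0.94 in COX7A2, 0.79 in COX6C and 0.61 in UQCR11. Without array 2 none of the 61 passed between the constructs (1.26% of features), and without array 3 none did (1% of features). SDHC was still lower in clone 2 than in the empty vector clones without array 2 (-0.69, adjusted p = 0.0188, where 3.54% of features passed), and did not pass without array 1 (-0.45, adjusted p = 0.0550) or without array 3 (-0.53, adjusted p = 0.0589).

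**Figure D4:**
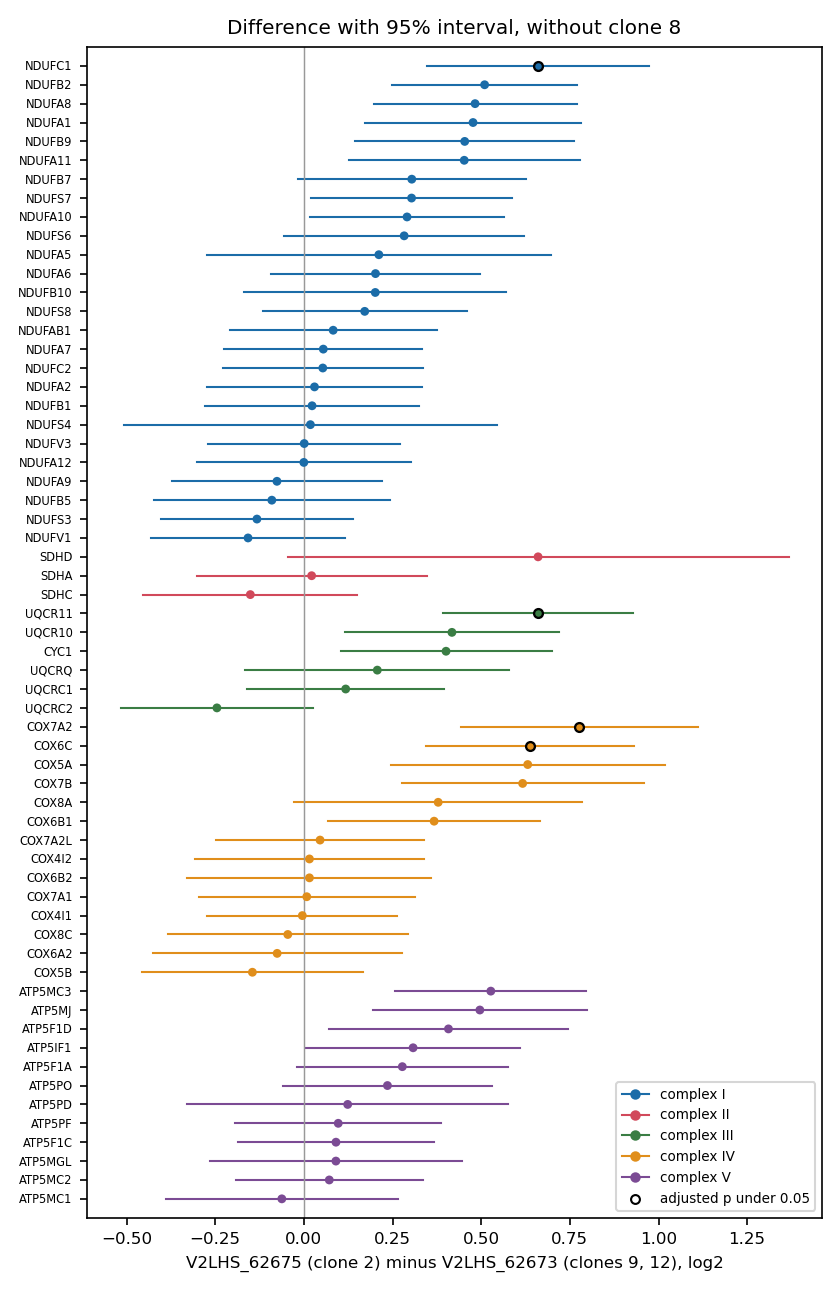
Log2 difference between clone 2 (V2LHS_62675) and clones 9 and 12 (V2LHS_62673) for the 61 tested subunits (x axis), by gene and complex (y axis), without clone 8. Points are limma estimates, lines their 95% intervals, and outlined points the 4 genes with an adjusted p under 0.05, all on the side of clone 2.

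Wild type cells were compared with the empty vector clones. The median difference was 0.07, against -0.01 over all features, and 40 of 61 subunits were higher in the wild type. Other gene groups shifted more. The median was 0.25 in mitochondrial ribosomal proteins (58 of 65 higher), 0.27 in proteasome subunits (25 of 29) and 0.11 in cytosolic ribosomal proteins (17 of 26). With all clones none passed (0% of features), and 2 had an unadjusted p under 0.05, against 2.59% of features. Without clone 8, 2 of 61 passed, against 3.57% of features (1.68% higher and 1.89% lower), and 10 had an unadjusted p under 0.05, against 19.7% of features. COX7B, a small membrane subunit of complex IV, was higher, at 10.54 in the wild type, against 10.11, 9.74 and 9.93, a difference of 0.62 (SE 0.15, adjusted p = 0.0463). ATP5MC2, which encodes the same c ring protein as ATP5MC1 and ATP5MC3, was lower, at 8.32 in the wild type, against 8.79, 8.77 and 8.82, a difference of -0.47 (SE 0.11, adjusted p = 0.0466). The knockdown arrays read 8.68 to 9.13 for ATP5MC2, so the wild type was below all other arrays. NDUFA10 of complex I (0.48, adjusted p = 0.0508) and UQCR11 (0.44, adjusted p = 0.0607) came next and did not pass.

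Among isoforms of complex IV known from particular tissues, COX4I2 (lung), COX6A2 and COX7A1 (heart and skeletal muscle) and COX6B2, COX7B2 and COX8C (testis) each had their highest level in clone 8. COX8C read 7.25 there and 6.10 to 6.60 elsewhere, and COX7B2 read 5.21 there and 4.20 to 4.67 elsewhere. COX7B2 was 4.47 to 5.21 on the knockdown arrays, against 4.20 to 4.46 on the control arrays. These ranges all but met, at 4.466 on array 3 of clone 2 and 4.464 in empty vector clone 3. All values of COX7B2 were below the floor and it was not tested. None of the 5 that were tested passed in any comparison. The 4 genes below the floor were NDUFB3 (4.60 to 5.87 over the arrays), ATP5PB of the peripheral stalk (3.82 to 4.75), COX7B2 and UQCRBP1, a pseudogene (3.57 to 5.12). Values so low on the array give no sign of whether the RNA is made.

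Clone 8 spread the subunits widely. Their differences from the empty vector mean ran from -3.79 (SDHC) to 1.57 (UQCR11). SDHC read 5.55 in clone 8, under the floor of 5.96, so -3.79 is not a reliable size. Of the 61 subunits 14 lay beyond 1 in either direction, as did 1761 of 11199 features. The direction went with the level: of the 30 subunits with a mean level under 9.47, 23 were higher in clone 8, with a median of 0.45, while of the other 31 it was 15, with a median of -0.04. NDUFA2, NDUFA6, NDUFB5, NDUFA9 and UQCRC2, all at a level over 10.4 elsewhere, were 10.19 or lower in clone 8 (chosen after their values were seen). The 25th percentile over all probes was 6.32 in clone 8, against at most 5.96 on the other arrays. The array quality weight that limma estimated was 0.0428 for clone 8, against 0.821 to 4.12 for the other samples, and the part of array quality in these values was not tested.

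Other genes of the pathway were taken from 8 lists: assembly factors of complex I (17 tested), of complexes II, III and V (11) and of complex IV (13), electron carriers (7), coenzyme Q synthesis (12), nucleotide and phosphate carriers (1), regulators of mitochondrial biogenesis and mitochondrial DNA expression (12) and mitochondrially encoded subunits (2). None passed between knockdown and control cells, with all clones or without clone 8. Among them, chosen after their values were seen, COX18, an assembly factor of complex IV, differed by -0.34 with all clones (adjusted p = 0.761), and NDUFAF5, one of complex I, by 0.37 without clone 8 (adjusted p = 0.670). None passed between V2LHS_62673 and the empty vector either.

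PPARGC1A lay below the floor of 5.96 in clone 2 and above it on all other arrays, so it was tested only through the groups where it was high. It read 5.44, 5.65 and 5.49 on arrays 1, 2 and 3 of clone 2, against 7.09, 7.17 and 6.92 in the empty vector clones, and the lower of clones 9 and 12 read 6.36. No size is given for the difference, since levels under the floor cannot be told from background here. Without clone 8 the fit called clone 2 lower than the empty vector clones (adjusted p = 0.00558) and than clones 9 and 12 (adjusted p = 0.0312), and with all clones it called neither (adjusted p = 0.892 and 0.931). COQ10A, a coenzyme Q binding protein, was lower in clone 2 than in the empty vector clones without clone 8 (-0.59, adjusted p = 0.0486). TFB2M, a transcription factor of mitochondrial DNA, was higher in the wild type than in the empty vector clones without clone 8 (0.51, adjusted p = 0.0466). With all clones neither passed (adjusted p = 1.00 for each).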

How the data were processed

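RNA was measured on 10 exon arrays. The deposited values are 1 log2 level for each of 22011 probes and array, and the base was read from their range. How the authors corrected, normalized and summarized them is not stated in the labels. Values were used as deposited. A single gene symbol was listed for 14432 probes, of which 14404 matched RefSeq by gene identifier; 2408 had more than 1 symbol and 5171 had no symbol. The probe with the highest mean stood for a gene, and genes under the floor were left out. The members and lists were chosen with earlier results of these data known.

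Comparisons used limma 3.58.1 in R 4.3.3 (lmFit, eBayes), two-sided, adjusted by Benjamini-Hochberg over 11199 features at a threshold of 0.05, in a fit of 2 groups (knockdown and control) and one of 4 groups, tested on simulated data. The arrays give no counts, and their number limits the precision. In these fits p-values measure the spread between clones. Named are subunits past the threshold, the smallest p in each complex, isoforms and those under the floor. Alternatives are given in the closing part. Replicate numbers do not pair the groups, and sequences came from RefSeq.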

Additional observations from a re-analysis of the deposited data

Results flagged for a closer look

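In groups of 4 clones, 84 groups were checked for 1 value far from the others by Dixon's criterion, and 10 were marked. The 84 groups were the knockdown and control values of the 36 named subunits and of the medians over the subunits and by complex. Many of the 36 were named for differences in these same data. The rate of about 1 of 20 groups that chance passes therefore does not apply to this list. Clone 8 accounted for 8 of them. It lay above the other knockdown clones in COX4I2 (7.30), COX6B2 (6.73), COX7A1 (6.52), COX7B2 (5.21) and COX8C (7.25), all tissue-restricted isoforms, and below them in NDUFA9 (10.19), SDHC (5.55) and UQCRC2 (10.02). COX7A1 read 5.75 to 6.05 on the other arrays, and its mean passed the floor of 5.96 only with clone 8. COX7B2 lay under that floor, as did SDHC in clone 8. Low values were raised in clone 8 in general, with a 25th percentile over all probes of 6.32, against at most 5.96 on the other arrays. The wild type stood apart from the empty vector clones in 2 genes, with a low ATP5MC2 (8.32) and a high UQCR11 (9.02).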

How the results depend on the processing

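The count of subunits past the threshold between knockdown and control cells was 0 under every alternative run. The counts in this part are not set against the share of all features in the same setting. They show only how a count moved, and not whether subunits passed more often than other genes. With all clones and array quality weights, 1 subunit passed between V2LHS_62673 and the empty vector. Leaving out 1 sample at a time gave counts of 0 to 2 for V2LHS_62675 against the empty vector, 0 to 2 for wild type against the empty vector and 0 to 4 between the constructs, in each case with the highest count without clone 8. Settings that left out clone 8 together with an array of clone 2 or with another normalization were chosen after seeing the data. With clone 8 left out, the count for V2LHS_62675 against the empty vector was also 13 without array 1 of clone 2, 1 without array 2, 0 without array 3 and 1 after quantile normalization. Between the constructs it was 18 without array 1, 2 after quantile normalization and 2 after centring each array on its median. For wild type against the empty vector it was 2 without any 1 array of clone 2 and 1 after centring. The median difference of wild type from the empty vector was 0.11 after centring, with or without clone 8, and 0.044 with array weights. Same-numbered arrays of clone 2 and the empty vector did not deviate together (correlations 0.03, -0.15 and -0.23). A fit with the replicate number as a block called 2 subunits there, SDHC and ATP5MC3. That fit took the arrays of clone 2 as separate samples although they are 1 clone, so its calls do not measure the spread between clones.

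Recomputed under each alternative, the 48 named differences gave 26 values of the other sign, 10 values that newly passed the threshold and 946 values that did neither. Array weights gave, between knockdown and controls, 0.14 for NDUFA9, -0.16 for NDUFV1, -0.0048 for SDHA and -0.12 for UQCR11. With the empty vector clones alone as controls and clone 8 left out, NDUFA9 was 0.21, NDUFV1 -0.19 and UQCR11 -0.0037, and with clone 8 kept ATP5MC2 was -0.016. NDUFV1 was -0.039 after centring and -0.086 with all arrays as replicates. Quantile normalization gave -0.084 for UQCR11 between the constructs. Leaving out 1 sample at a time, the knockdown difference ranged from -0.18 to 0.15 for NDUFA9, -0.21 to 0.14 for NDUFV1, -0.021 to 0.21 for SDHA, -0.34 to 0.051 for SDHD, -0.11 to 0.49 for UQCR11, -0.18 to 0.021 for ATP5F1D and -0.016 to 0.15 for ATP5MC2. Between the constructs it ranged from -0.25 to 0.66 for both NDUFC1 and UQCR11. The cause of these changes was not tested. Clone 2 and the wild type have no replicate clone, and the number of arrays limits what could be detected.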
